A study of Mus musculus with 44 samples.

Results

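The 10 genes described here encode proteins by which astrocytes are recognised in the mouse brain: Aqp4, Slc1a2, Slc1a3, Slc4a4, Gja1, Aldh1l1, Gfap, S100b, Fgfr3 and Sox9. They were taken as a fixed list of astrocyte markers, and each gene was read from 1000 bp before to 1000 bp after its RefSeq span on GRCm38/mm10. The assay was RRBS (reduced representation bisulfite sequencing), which samples CpG-dense fragments. For single cytosines it reports the percent of molecules read as methylated. Bisulfite sequencing does not tell methylcytosine from hydroxymethylcytosine, so a level here covers both. Of the cytosines present in all 3 tables of a tissue, the genes held 554 of 1060321 in whole blood, 615 of 1108227 in hippocampus and 711 of 1268595 in frontal cortex, and 484 of the 913806 cytosines found in all 9 tables. They are 10 of the 21900 protein-coding genes listed in RefSeq. Of these, 16238 in blood, 16341 in hippocampus and 16830 in cortex had at least 3 measured cytosines.

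Astrocytes are the glia that clear glutamate and potassium from around synapses, line blood vessels with aquaporin-rich endfeet and are coupled to each other by gap junctions. Methylation of CpG sites is laid down in a pattern that differs between cell types. CpG-dense promoters are unmethylated in most tissues whether or not the gene is active, whereas sites within genes and at distal enhancers often tell cell types apart. Loss of methylation at the Gfap promoter and at other glial genes is a known step by which neural precursors become competent to form astrocytes. Whole blood DNA comes from leukocytes, which are not known to use most of these genes as brain cells do.

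All 44 libraries came from wild type male C57BL/6J mice aged 8 to 12 weeks and weighing about 30 g, and every animal, controls included, had been taken through a Gulf War Illness protocol. The rodent glucocorticoid corticosterone (CORT) was drunk at 200 mg/L in 0.6% ethanol for 7 days. Diisopropyl fluorophosphate (DFP, an acetylcholinesterase inhibitor) was injected at 4 mg/kg on day 8, and CORT was then given again in alternate weeks until 5 weeks were complete. On the last day the animals received saline or lipopolysaccharide (LPS, bacterial endotoxin) at 0.5 mg/kg under the skin. Whole blood was represented by 4 saline libraries (taken at 6 h) and by 4, 3 and 3 LPS libraries taken at 6, 12 and 24 h. Hippocampus had 3 saline and 4, 3 and 4 LPS libraries, and frontal cortex had 4 libraries in each group. No group lacked CORT and DFP, and saline tissue was taken only at 6 h, so at 12 and 24 h the time and the injection cannot be told apart. The labels do not say whether replicates are separate animals or which tissues share an animal, so the p-values reflect no more than the scatter of these samples, part of which may be technical.

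The mean level over all cytosines of a tissue was 30.9% ± 0.199 (SD, n = 4) in saline blood and 32.7 to 33.3% in the LPS groups of blood. It was 25.7% ± 0.134 (n = 3) in saline hippocampus and 24.5% ± 0.343 (n = 4) in LPS hippocampus at 6 h, and 30.3 to 30.7% in the 4 groups of cortex. Read counts were not given, so the depth behind a level is unknown and only the scatter among libraries gives an error. In bulk DNA a change in the mix of cells cannot be told apart from a change of methylation within a cell type.

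Of the genes, 9 were measured in every tissue. S100b, a calcium-binding protein of mature astrocytes, had 1 cytosine in the 6 h table of hippocampus (72.7 to 100.0% over 7 libraries), 1 other in the 24 h table of cortex (84.6 to 100.0% over 8 libraries) and none in the blood tables. Sox9, a transcription factor of glial precursors and astrocytes, was measured at 71 to 97 cytosines, but its mean over the libraries compared lay below the range of 5 to 95% set for testing. The other 8 genes were tested in every comparison of LPS with saline. Between tissues, over the cytosines of all 9 tables, 7 genes were tested. Gja1 was left out there, as its 3 shared cytosines averaged 0.208% in saline blood, 0.278% in hippocampus and 0.556% in cortex. The means of the 8 genes rested on very different numbers of sites in blood, from 4 cytosines for Gfap and 5 for Gja1 to 176 for Fgfr3.

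The proximal promoter was seen by RRBS at only a few of these genes, which the following sequences illustrate. The promoter list used gives a start for 8 of the 10 genes, Aqp4 and Sox9 being the exceptions. For 3 of the 8, the 250 bases before a listed start are printed in lower case, 5′ to 3′ on the gene's strand (GRCm38.p6). The CpG sites measured in at least 1 tissue are in capitals. Aldh1l1 had 7 measured sites, the second listed start of Fgfr3 had 7 in a far denser run of CpGs, and Gfap had none.
Aldh1l1, chr6:90550543-90550792, plus strand: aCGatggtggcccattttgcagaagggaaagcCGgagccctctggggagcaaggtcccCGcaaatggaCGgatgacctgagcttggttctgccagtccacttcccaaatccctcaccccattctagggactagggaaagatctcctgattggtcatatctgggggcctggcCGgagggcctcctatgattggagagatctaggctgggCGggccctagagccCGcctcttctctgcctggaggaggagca
Fgfr3, chr5:33722056-33722305, plus strand: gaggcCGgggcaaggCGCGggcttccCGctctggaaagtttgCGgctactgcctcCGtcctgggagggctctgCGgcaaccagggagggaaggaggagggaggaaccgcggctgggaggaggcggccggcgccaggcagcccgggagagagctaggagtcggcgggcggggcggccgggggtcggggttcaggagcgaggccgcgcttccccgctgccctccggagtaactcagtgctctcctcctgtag
Gfap, chr11:102897201-102897450, minus strand: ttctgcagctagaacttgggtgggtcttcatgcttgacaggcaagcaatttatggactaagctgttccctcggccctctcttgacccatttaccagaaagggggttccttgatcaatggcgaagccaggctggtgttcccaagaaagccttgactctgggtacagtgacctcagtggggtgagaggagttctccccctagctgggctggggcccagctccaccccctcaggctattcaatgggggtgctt
In the window from 250 bases before to 50 bases after the start, Gfap held 3 CpGs, Aldh1l1 held 9 and the second start of Fgfr3 held 30, numbers reached or passed by 76.7%, 45.8% and 11.7% of all listed mouse promoters. The listed windows of Slc1a2, Slc1a3, S100b and Gja1, the first of Fgfr3 and the second of Slc4a4 were not measured. The first window of Slc4a4 was measured only in cortex. The listed Slc1a2 window begins at chr2:102706188, inside the gene, whose span on the plus strand begins at 102658239. That end of Slc1a2 was measured and is described by tile below. The letters TTCNNNGAA, bound by STAT factors, occurred on either strand in the windows of Gfap and Slc1a3 and in 8.30% of 32851 promoters. The SP1 letters GGGCGG occurred in those of Slc1a3, Aldh1l1, Fgfr3 and Slc4a4 and in 35.7% of promoters.

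The 2 promoter windows measured in all tissues differed in level. At the Aldh1l1 window, 6 cytosines measured in all tissues averaged 10.7% ± 2.28 (n = 4) in saline blood, 22.8% ± 3.47 (n = 3) in saline hippocampus and 28.8% ± 1.15 (n = 4) in saline cortex, and every brain library was above every blood library. The Fgfr3 window had group means of 0.863 to 3.58% over 11 cytosines, most of them nearly unmethylated in every group. The exception was chr5 position 33722061 on the plus strand, at 19.4 to 35.0% in the blood groups. It stood at 3.69 to 23.7% in the hippocampal and 8.82 to 11.6% in the cortical groups. The minus strand of the same CpG, position 33722062, was at 0 to 2.07%. The first window of Slc4a4, measured only in cortex, had group means of 0 to 2.5% at its 7 cytosines. Within 1 kb of a listed start, saline levels in hippocampus were 0.429% for Gja1, 0.477% for Slc1a3, 0.533% for Fgfr3, 0.644% for Slc4a4 and 33.2% for Aldh1l1. The folate enzyme Aldh1l1 thus had the one measured start region with intermediate methylation in brain, while those of the glutamate transporter Slc1a3, the growth factor receptor Fgfr3, the gap junction gene Gja1 and the bicarbonate transporter Slc4a4 were almost free of it. In blood the sites within 1 kb of a listed start were not the same set. Their saline levels were 8.42% over 15 cytosines for Aldh1l1 and 7.22% over 69 for Slc4a4, where hippocampus had 26 and 75. Slc4a4 has 2 listed starts. At the first, the tiles of 47 and 17 cytosines measured in all tissues stayed at 0.558 to 1.79% in the blood groups.

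The map of 1 kb tiles shows the levels along each gene. The tiles at the listed starts of Slc1a3 and Fgfr3 and at the first listed start of Slc4a4 stayed below 2% in all 12 groups. That of Aldh1l1 lay at 5.91 to 8.42% in the blood groups and 27.4 to 34.6% in the brain groups. The pair of tiles at the lower end of Slc1a2, where the span of this plus-strand gene begins, ranged from 0.311 to 4.22%.

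**Figure D1:**
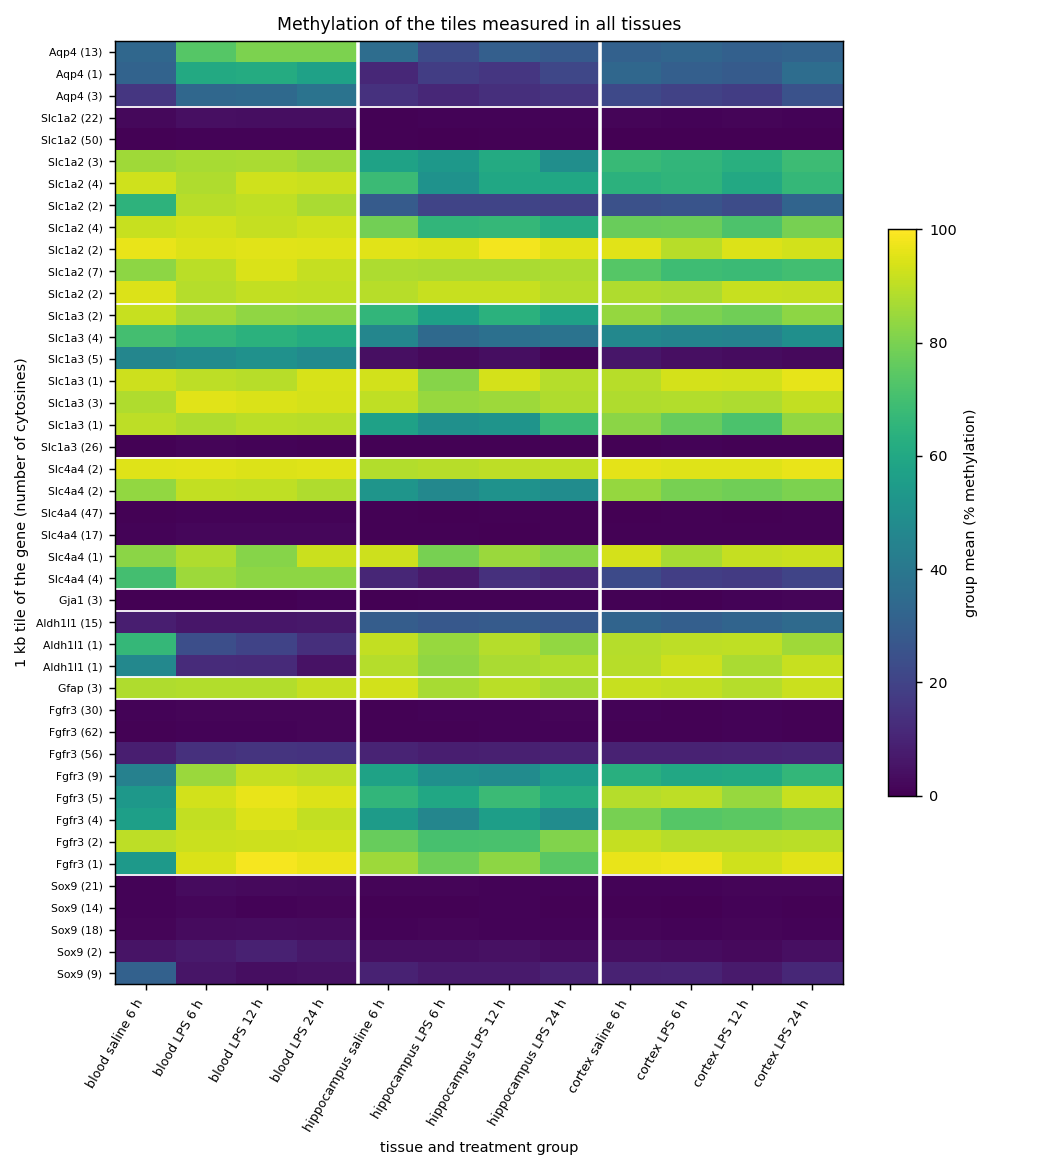
Mean percent methylation (colour, 0 to 100) of the 43 fixed 1 kb tiles measured in all 9 tables, 1 row per tile in genomic order within each gene with its number of cytosines in parentheses, 1 column per tissue and treatment group. The 3 tiles of Aqp4 and the Fgfr3 tile of 9 cytosines are lower in saline blood than in the LPS groups of blood, and the last tile of Sox9 and the 2 interior tiles of Aldh1l1 are the reverse.

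Several interior tiles separated blood from brain whatever the treatment. In Slc1a3 (GLAST, a glutamate transporter), the 5 cytosines in chr15:8663000-8663999 stood at 45.7 to 50.6% in the blood groups and at 1.43 to 6.15% in the brain groups. In Slc4a4 (NBCe1, the sodium bicarbonate cotransporter of astrocytes), 4 cytosines in chr5:89088000-89088999 stood at 70.2 to 85.5% in blood and 6.71 to 22.6% in brain. In Slc1a2 (GLT-1, the main glutamate transporter of the forebrain), 2 cytosines in chr2:102676000-102676999 stood at 64.5 to 90.4% in blood and 19.7 to 32.4% in brain. These 3 transporter tiles were less methylated in both brain regions than in blood in all 12 groups. At Gfap, the intermediate filament of astrocytes, 8 cytosines 5.89 to 5.95 kb above the lower end of the gene were at 1.52 to 13.2% in saline hippocampus and were not among the blood sites, while 4 sites below its lower end were at 92.6 to 94.8%.

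Between tissues of saline mice, Aldh1l1 and Slc1a3 separated blood from both brain regions past the threshold, which was an adjusted p under 0.05 and at least 5 percentage points (limma with Benjamini-Hochberg adjustment, over sites of all 9 tables). Aldh1l1 averaged 14.1% ± 0.948 (n = 4) in blood, 36.6% ± 3.02 (n = 3) in hippocampus and 38.9% ± 2.30 (n = 4) in cortex. Slc1a3 averaged 27.5% ± 0.826 in blood, 18.3% ± 0.973 in hippocampus and 19.8% ± 1.89 in cortex. Blood therefore had the lowest Aldh1l1 and the highest Slc1a3, with no overlap with brain. Against blood, Aldh1l1 was higher by 22.5 points in hippocampus (adjusted p = 6.95e-07) and by 24.8 in cortex (2.17e-07), and Slc1a3 was lower by 9.16 (1.61e-05) and 7.69 (3.07e-05). Gfap also passed in hippocampus (93.2% against 88.1%, adjusted p = 0.0495), with overlapping libraries. This rests on 3 cytosines, all below the lower end of the gene. In all, 3 of 7 tested members differed between hippocampus and blood, where 25.3% of all genes did, 2 between cortex and blood (24.7% of genes) and 0 between hippocampus and cortex (4.8%). Slc1a2, Slc4a4 and Fgfr3 also had an adjusted p under 0.05 against blood in both regions, with differences under 5 points. The Gfap call was lost without any of 9 of the 11 saline libraries (adjusted p from 0.0511 to 0.197).

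Aqp4, the water channel of astrocyte endfeet, did not separate the tissues in saline. It averaged 30.2% ± 2.41 (n = 4) in blood, 30.4% ± 2.96 (n = 3) in hippocampus and 29.7% ± 2.21 (n = 4) in cortex over the same 17 cytosines. The difference was 0.269 ± 3.77 points (95% half-width) for hippocampus against blood and -0.501 ± 3.49 points for cortex against blood. When the LPS 6 h libraries of the 3 tissues were compared instead, Aqp4 in brain lay 45.2 points below blood in hippocampus and 35.5 points below it in cortex.
Between the brain regions, Slc4a4 and Fgfr3 had an adjusted p under 0.05 with differences under 5 points. Over sites of all 9 tables, hippocampus minus cortex was -1.65 ± 0.628 points for Slc4a4 (limma adjusted p = 0.00443) and -1.84 ± 1.03 for Fgfr3 (0.0273), both without overlap. Over sites of the 6 brain tables, a set chosen after seeing the data, Fgfr3 did not pass (-1.81 ± 1.18, 0.0782) and Slc4a4 did, with 7.45% ± 0.411 (n = 3) in hippocampus and 9.31% ± 0.316 (n = 4) in cortex over 95 sites (limma adjusted p = 0.0176).

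**Figure D2:**
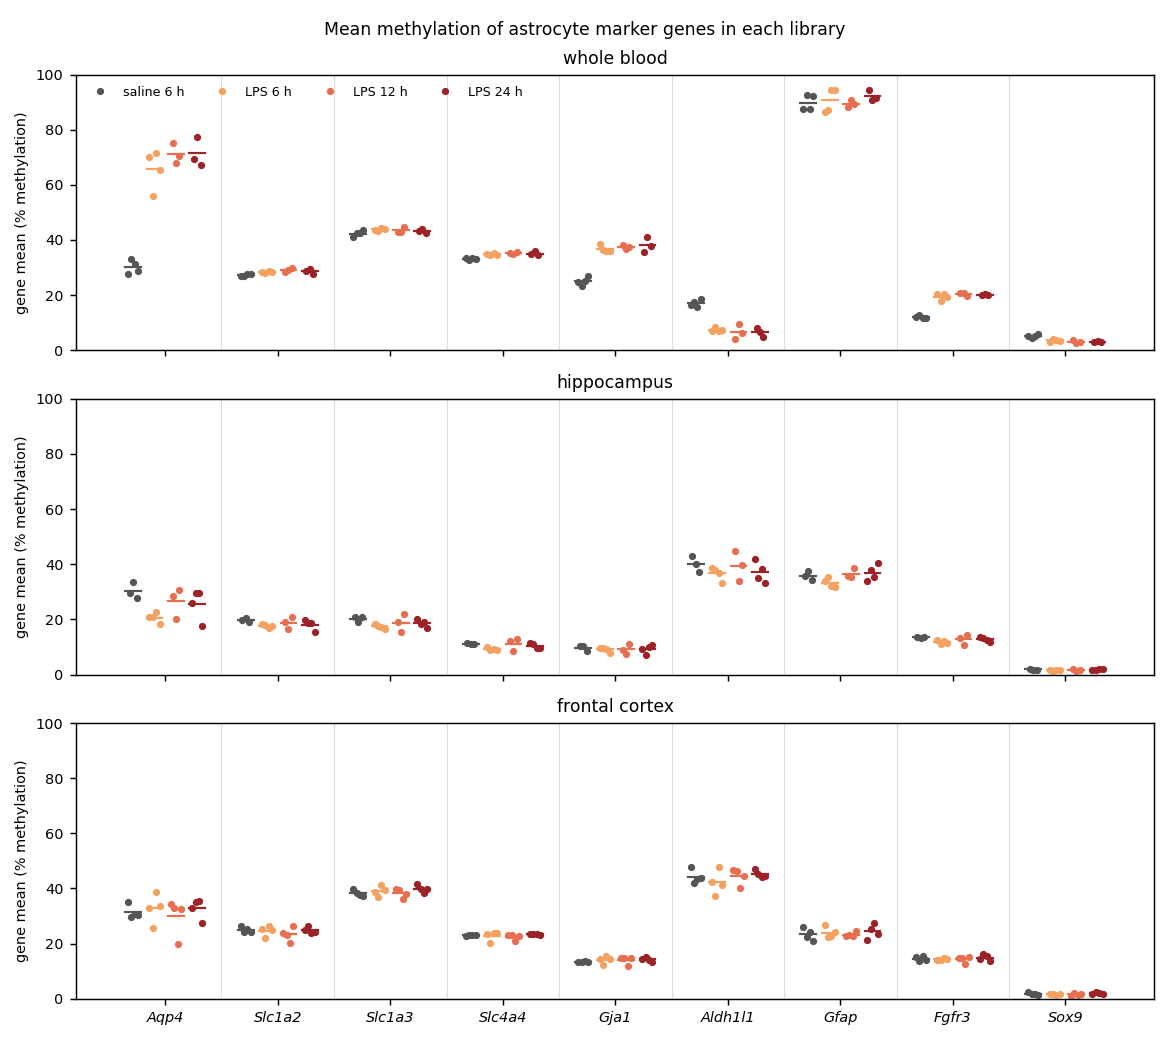
Mean percent methylation of each of the 9 measured genes (vertical axis, 0 to 100%) in every library (points) with the group mean (bar), by tissue and group. In blood the Aqp4 points of saline lie between 27.7 and 33.1% and those of LPS between 56.1 and 77.5%, and in brain the groups mostly overlap. Levels of a gene in different panels rest on partly different cytosines.

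After LPS, the largest changes of these genes were found in blood. Of the 8 tested genes, 5 rose and 1 fell at both 6 and 12 h, and 4 rose and 1 fell by 24 h (limma, adjusted p under 0.05). Much of the measured genome did the same: 52.3%, 56.7% and 50.3% of all tested genes were called at the 3 times, with 42.3%, 48.5% and 41.2% higher and 9.99%, 8.16% and 9.05% lower. The share of members called, 6, 6 and 5 of 8, is therefore not far from that of genes at large. The median difference was 1.55, 1.94 and 2.08 points over the members against 1.14, 1.65 and 1.27 points over all genes. What set single members apart from that median was the size of the change in Aqp4, Gja1, Aldh1l1 and Fgfr3.

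Aqp4 had the widest change of the 9 genes. Saline blood libraries read 27.7, 33.1, 31.1 and 28.8%. LPS libraries read 70.2, 56.1, 71.6 and 65.4% at 6 h, 75.1, 67.8 and 70.4% at 12 h. The 24 h libraries read 69.4, 77.5 and 67.2%. Every LPS library was higher than every saline library, and the LPS times overlapped each other. The difference was 35.6 ± 7.24 points at 6 h (95% half-width, limma adjusted p = 3.13e-05), 40.9 ± 4.58 at 12 h (4.05e-06) and 41.2 ± 5.83 at 24 h (1.01e-05). All 17 of its cytosines were called higher at all 3 times. In the tile chr18:15403000-15403999, 13 cytosines moved from 33.4% to 73.6, 80.3 and 80.1%, while the same tile in the brain groups lay between 22.97 and 35.7%. The single cytosine with the widest call, chr18 position 15403478 on the minus strand, went from 38.0% ± 3.80 to 87.8% ± 5.15, 92.5% ± 3.93 and 96.6% ± 3.24. The long noncoding RNA gene A830021F12Rik overlaps or lies near the Aqp4 span, and the table of genes used does not give exons or, for Aqp4, a strand.

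Slc1a2, Slc1a3 and Slc4a4, the other transporters, changed little as whole genes. Slc4a4 went from 33.2% ± 0.305 (n = 4) to 34.9% ± 0.457 (n = 4), 35.4% ± 0.250 (n = 3) and 35.0% ± 0.796 (n = 3), and rose at all times (limma adjusted p = 0.00879, 0.0021 and 0.0242). Slc1a2 went from 27.3% ± 0.297 to 28.4% ± 0.340, 29.1% ± 0.638 and 28.7% ± 0.886, and rose at 6 and 12 h (limma adjusted p = 0.0207 and 0.00774) but did not pass at 24 h (0.0542). These changes are close to the median of all genes, and with library means subtracted they turned to -0.169, -0.293 and -0.160 points for Slc4a4 and to -0.656 and -0.641 for Slc1a2 at 6 and 12 h, none of them called. Slc1a3 stood at 42.3% ± 0.968 in saline and at 43.8, 43.5 and 43.3% after LPS (limma adjusted p = 0.0758, 0.205 and 0.352). Leaving out saline replicate 1 or 2 or LPS replicate 3 ended the Slc1a2 call at 6 h (adjusted p = 0.0612, 0.0619 and 0.0512). The Slc4a4 call at 24 h ended without saline replicate 2, 3 or 4 or LPS replicate 1 (adjusted p from 0.0533 to 0.0662), and under the replicate block (0.111), as did Slc1a2 at 6 h (0.0557).

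Single stretches inside the transporter genes moved more. In the Slc4a4 tile chr5:89088000-89088999, saline libraries read 68.5, 67.5, 72.3 and 72.5% and LPS libraries 81.2, 89.0, 84.8 and 87.0% at 6 h, 82.6, 81.9 and 85.0% at 12 h. The 24 h libraries read 81.3, 87.6 and 80.6%. No LPS library overlapped with saline, and the tile rose by 15.3 ± 5.54, 13.0 ± 5.48 and 13.0 ± 6.30 points (limma adjusted p = 0.00018, 0.001 and 0.00248). This is the tile that stood at 6.71 to 22.6% in the brain groups. In Slc1a2, 7 cytosines in chr2:102739000-102739999 rose from 83.0% ± 1.18 to 89.6, 94.2 and 91.2% (adjusted p = 0.00901, 0.000317 and 0.00567). The Slc1a3 tile chr15:8681000-8681999 rose from 86.2% ± 4.04 to 93.1% at 12 h and 97.2% at 24 h (adjusted p = 0.0283 and 0.000885) and was not called at 6 h (91.8%, adjusted p = 0.051). Its 12 h call was lost when saline replicate 1, LPS replicate 1 or LPS replicate 3 was left out, under the replicate block and when libraries were centred, and it was gained at 6 h without saline replicate 2 or LPS replicate 1 and under the block (0.0205).

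The Slc1a3 cytosine with the widest call moved the other way. At chr15 position 8663713 on the minus strand it fell from 61.1% ± 5.67 to 33.6% ± 11.2 at 6 h, 44.3% ± 5.28 at 12 h and 25.4% ± 12.9 at 24 h (limma adjusted p = 0.00317, 0.0474 and 0.000859), towards the 1.56 to 7.90% of the brain groups. Its 12 h call was lost without any 1 of the 7 libraries compared (adjusted p from 0.0621 to 0.157). The tile of 5 cytosines that holds this site, chr15:8663000-8663999, stayed at 45.7 to 50.6% in the blood groups. In all, 7 cytosines of Slc1a3 were called higher and 4 lower at some time. The widest Slc1a2 cytosine, chr2 position 102676471 on the minus strand, rose from 61.1% ± 2.30 to 85.5, 90.6 and 88.1%, away from the brain groups, which lay between 15.2 and 30.2%. The widest Slc4a4 cytosine, chr5 position 89088538 on the plus strand, rose from 46.0% ± 2.58 to 71.8, 75.4 and 66.2% and lay between 3.17 and 20.1% in brain. Without LPS replicate 2 its 24 h call was lost (adjusted p = 0.0813).

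Gja1 (connexin 43, the gap junction protein that couples astrocytes) rose in blood. Saline libraries read 24.6, 23.2, 25.1 and 26.9%. LPS libraries read 38.5, 36.5, 35.9 and 35.8% at 6 h, 38.1, 36.9 and 37.3% at 12 h. The 24 h libraries read 35.7, 41.1 and 37.7%. All LPS libraries were higher than all saline libraries. The differences were 11.7 ± 2.01, 12.5 ± 1.97 and 13.2 ± 3.16 points (limma adjusted p = 1.32e-05, 1.64e-05 and 0.000132), but the gene mean rests on 5 cytosines, of which 3 had group means of 0 to 1.75% and the other 2 were called higher at all times. One of these, chr10 position 56383638 on the plus strand, went from 54.3% ± 1.39 to 88.2, 93.9 and 92.1%. In hippocampus the same cytosine lay between 40.6 and 57.9% by group.

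Aldh1l1, a folate enzyme used as a general astrocyte marker, was the tested member that fell. Saline blood libraries read 16.5, 17.4, 15.8 and 18.4%. LPS libraries read 6.84, 8.25, 7.08 and 7.43% at 6 h, 4.08, 9.62 and 6.10% at 12 h. The 24 h libraries read 8.25, 6.76 and 4.95%. All LPS libraries were below all saline libraries, and the 12 h libraries were the most spread. The gene fell by 9.64 ± 1.35, 10.4 ± 3.004 and 10.4 ± 2.07 points (limma adjusted p = 5.4e-06, 0.000329 and 5.26e-05). Its called cytosines were 4 sites about 19.2 to 19.3 kb into the gene, 3 of which lie in the tile chr6:90570000-90570999. That tile read 42.5, 42.1, 43.0 and 47.0% in saline and 2.76 to 11.7% at 6 h, 4.98 to 6.21% at 12 h and 2.82 to 6.81% at 24 h. The fourth, chr6 position 90569981, fell from 66.5% ± 6.10 to 24.2, 20.1 and 13.5%, while it stayed at 83.8 to 90.8% in the brain groups. The promoter sites printed above stood at 10.7% ± 2.28 in saline and 6.43% ± 1.41, 6.72% ± 3.16 and 6.85% ± 0.821 in LPS blood over the 6 shared cytosines, which were not tested as a window.

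Gfap did not pass in blood. Its 4 cytosines, all below the lower end of the gene, read 87.4 to 92.5% in saline and 86.5 to 94.5% in LPS libraries, so the groups overlapped. The differences were 0.767 ± 5.34, -0.379 ± 3.90 and 2.37 ± 4.19 points at 6, 12 and 24 h (limma adjusted p = 0.817, 0.86 and 0.318). Fam187a and the noncoding gene Gm34560 overlap or lie near the Gfap span.

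Fgfr3, a fibroblast growth factor receptor made by astrocytes and their precursors, rose over a long stretch. Saline libraries read 12.1, 12.6, 11.7 and 11.7%. LPS libraries read 20.2, 17.97, 20.2 and 19.1% at 6 h, 20.7, 20.9 and 19.7% at 12 h. The 24 h libraries read 20.2, 20.2 and 19.99%. The LPS libraries lay above the saline libraries throughout. The differences were 7.37 ± 1.23, 8.38 ± 0.951 and 8.12 ± 0.779 points (limma adjusted p = 1.17e-05, 4.21e-06 and 2.08e-06). Of its 176 cytosines 134 were below 10% in saline. The start window printed above had group means of 2.10 to 3.58% in blood, including the single site at 19.4 to 35.0%. Of all its cytosines 39 were called higher at some time and 34 at all times, and 5 of its 7 tiles were called at all 3 times. In the tile chr5:33724000-33724999, 10 cytosines went from 43.7% ± 3.63 to 85.2% ± 6.31, 91.3% ± 4.11 and 90.2% ± 4.12. Their brain levels were 44.9 to 53.6% in the hippocampal and 59.9 to 64.9% in the cortical groups.

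Sox9 moved in 1 place. Over all 71 cytosines it read 5.20, 4.42, 5.29 and 5.76% in saline blood and 2.61 to 4.01% in the LPS libraries, without overlap and below the level tested. In the tile chr11:112785000-112785999, in the middle of the gene span, 9 cytosines read 31.7, 26.4, 32.3 and 33.7% in saline. They read 4.49, 8.59, 3.73 and 5.42% at 6 h, 4.07, 4.22 and 3.29% at 12 h. The 24 h libraries read 4.00, 5.69 and 3.58%. Saline blood was high and every LPS library low, with differences of -25.5 ± 4.25, -27.1 ± 4.48 and -26.6 ± 4.60 points (limma adjusted p = 1.01e-07, 4.87e-07 and 4.17e-07). In brain the tile stood at 7.08 to 11.01% by group, above the means of the LPS blood groups and below that of saline blood. The other tiles of Sox9 stayed below 10% in all groups.

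**Figure D3:**
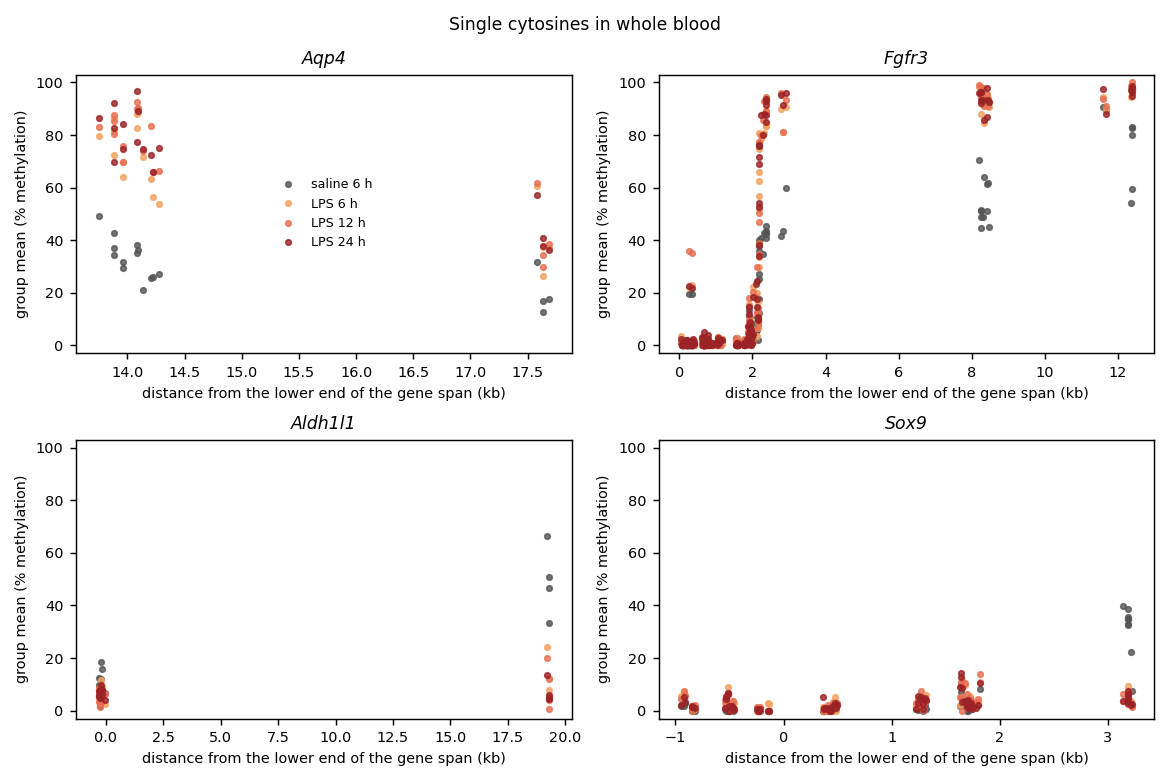
Group mean percent methylation (vertical axis) of single cytosines in whole blood against distance in kb from the lower end of the gene span for Aqp4, Fgfr3, Aldh1l1 and Sox9, coloured by group. At Aqp4 all 17 cytosines are higher in the LPS groups than in saline. At Fgfr3 most sites near the start stay low and many of those farther in rise. At Aldh1l1 and Sox9 a few sites within the gene span are higher in saline than in the LPS groups.

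Counted by site, 85 of 195 tested member cytosines were called at 6 h (70 higher, 15 lower), 87 of 193 at 12 h (72 and 15) and 91 of 195 at 24 h (75 and 16), with an adjusted p under 0.05 and at least 10 points in limma. Over all cytosines 28.9%, 30.6% and 29.9% were called, with 21.1%, 23.3% and 21.7% higher and 7.79%, 7.28% and 8.19% lower. Across the 554 member cytosines 63 were higher and 13 lower at all 3 times, and none was called in both directions. Of 1 kb tiles, 15 of 28, 16 of 27 and 15 of 28 were called, beside 42.2%, 45.1% and 43.3% of all tiles, and 14 were called at all 3 times. The shares of all cytosines and tiles called at all 3 times, or in both directions, were not counted. The 3 times share their saline libraries, so the counts at all 3 times say nothing particular about the members. Of the 85 cytosines called at 6 h, 17 lay in Aqp4 and 36 in Fgfr3. Sites of a gene were counted singly, so the shares called are not read as a trait of the list. Sites of intermediate level (20 to 80%) made up 14.6% of member cytosines in saline blood and 7.04%, 6.14% and 6.86% in the LPS groups. Over all cytosines this share went from 15.2% to 10.5%, 9.62% and 9.88%.

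Between 6 and 24 h after LPS no gene was called in blood, hippocampus or cortex (limma, 0 of 11837, 10521 and 12226 genes, 0.0%), with 243, 703 and 194 genes at an unadjusted p under 0.05. Among members, Gfap and Slc4a4 in hippocampus had such a p (0.041 and 0.0349), with adjusted p = 0.724 for both.

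Genes of leukocytes moved in the same blood libraries, and their part in the results for the astrocyte genes was not tested. Of 10 tested genes of a neutrophil list, 8, 8 and 9 fell and 0 rose, with median differences of -28.8, -28.4 and -32.0 points. The mean over this list was 57.7% ± 1.07 (n = 4) in saline blood (range 56.7 to 59.2%) and 34.6 to 43.3% over the 10 LPS libraries. The granulocyte transcription factor gene Cebpe, for example, went from 60.9% down to 26.7% at 6 h, and Csf3r, the receptor of granulocyte colony-stimulating factor, from 36.0% to 3.39%. Of 7 tested B cell genes 4 rose at each time and 1, 2 and 2 fell, and of 13 T cell genes 5, 6 and 6 rose and 4 fell. Beside these lists, 42.3%, 48.5% and 41.2% of all tested genes rose and 9.99%, 8.16% and 9.05% fell. The mean over 6 genes of the B cell list was 44.5% ± 0.437 in saline and 51.5 to 60.2% in LPS libraries. The neutrophil list stood at 62.3% ± 1.15 in saline hippocampus and 67.9% ± 3.04 in saline cortex, both above saline blood, and a list of neuron genes at 16.7% and 16.3% in brain and 20.7% in blood. No RNA was measured, so the tissue labels were not checked on marker expression.

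Of 32 tested genes of a wider astrocyte list, 18, 21 and 19 rose and 2, 1 and 2 fell at 6, 12 and 24 h, with median differences of 2.85, 3.19 and 2.99 points. Among all tested genes 42.3%, 48.5% and 41.2% rose and 9.99%, 8.16% and 9.05% fell, with medians of 1.14, 1.65 and 1.27 points. The widest changes at 6 h were in Dio2, the deiodinase that activates thyroid hormone (60.7% ± 1.63 to 86.0% ± 1.17), in Gpr37l1, an orphan receptor of glia (62.7% to 85.3%), and in Sparcl1, a matrix protein secreted at synapses (37.6% to 56.0%). Of 21 genes induced in reactive astrocytes, 9, 11 and 9 rose and 3, 4 and 3 fell. The largest rise was in Serping1, the C1 inhibitor of complement, from 16.6% ± 5.12 to 76.1% ± 8.16 at 6 h, beside Cd109 (49.3% to 91.6%) and the hyaluronan receptor Cd44 (50.9% to 86.3%).

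Of 22 tested paralogs of the members 11, 13 and 13 rose and 3 fell at each time, with medians of 1.32, 2.12 and 1.98 points. The shares over all tested genes, for these and the next lists, were 42.3%, 48.5% and 41.2% higher and 9.99%, 8.16% and 9.05% lower. Slc4a10, a neuronal bicarbonate transporter, went from 45.5% ± 2.34 to 79.1% ± 4.44 at 6 h, and Fgfr2 from 18.1% ± 0.537 to 31.1% ± 1.16. Of a neuron list 8 of 12, 9 of 13 and 7 of 12 genes rose and 0 fell. Syn1, a synaptic vesicle protein, went from 13.7% ± 2.57 to 43.6% ± 3.96. Of 7 tested oligodendrocyte genes 2, 3 and 2 rose and 1, 2 and 1 fell. Of 12 microglial genes 2, 3 and 2 rose and 5 fell at each time, with Spi1, the myeloid factor PU.1, going from 67.3% to 8.66% at 6 h.

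In hippocampus the members were lower after LPS at 6 h. All 9 measured genes had a lower LPS mean, as did 70.6% of all measured genes, and 5 were lower without overlap, as were 19.7%. The mean over all cytosines was also lower, at 24.1 to 24.8% in the LPS libraries and 25.5 to 25.8% in saline. The median difference of the 8 tested was -2.36 points against -0.987 over all genes. Aqp4 read 29.7, 33.7 and 27.9% in saline and 20.7, 21.0, 22.6 and 18.2% in LPS libraries, all below saline. Slc4a4 read 11.4, 10.98 and 11.2% in saline and 9.92, 8.77, 9.18 and 8.73% in LPS libraries, again all below. Both passed the test, with differences of -9.83 ± 3.55 points (limma adjusted p = 0.0418) and -2.04 ± 0.804 points (0.0419), where 3.38% of all genes were called, 3.35% lower and 0.0285% higher. Slc1a2 (19.8% ± 0.805 to 17.7% ± 0.616), Slc1a3 (20.3% ± 1.22 to 17.5% ± 0.785) and Fgfr3 (13.5% ± 0.296 to 11.8% ± 0.6249) did not overlap either and missed it, with adjusted p = 0.0581, 0.0579 and 0.0561.

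The 2 hippocampal calls were lost without any 1 of the 7 libraries compared, with adjusted p from 0.0525 to 0.122 for Aqp4 and 0.0543 to 0.127 for Slc4a4, and the differences without a library were -8.20 to -11.1 and -1.90 to -2.30 points. Centred on library means, the differences were -8.68 points for Aqp4 (0.0928) and -0.888 for Slc4a4 (0.121), and with a replicate block they were -9.01 (0.101) and -1.90 (0.0983). With each 1 kb tile weighted equally, Aqp4 differed by -2.86 points (0.351) and Slc4a4 by -6.55 (0.0442). At 12 h Aqp4 differed by -3.95 ± 7.38 points and at 24 h by -4.86 ± 6.99, and no member was called at either time. In limma 0 of 10660 genes (0.0%) were called at 12 h, with 260 at an unadjusted p under 0.05 and no member among them, and 2 genes at 24 h (0.0189%), with 1053 and no member.

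No tile and no cytosine was called in hippocampus or cortex at any time (0.0%). At 6 h in hippocampus 7 of 23 member tiles and 33 of 199 member cytosines had an unadjusted p under 0.05, beside 18.1% of all tiles and 10.2% of all cytosines. In cortex 1 to 2 of 33 or 34 member tiles and 3 to 5 of 242 to 247 member cytosines did, beside 3.0 to 3.49% of all tiles and 3.1 to 3.51% of all cytosines. In cortex no gene was called at 6, 12 or 24 h (limma, 0.0%), with 186, 185 and 300 genes at an unadjusted p under 0.05. Gja1 at 24 h was the only member among them (13.4% ± 0.259 to 14.3% ± 0.684, unadjusted p = 0.0448, adjusted p = 1.0). Aqp4 in cortex differed by 1.32 ± 5.77, -1.56 ± 7.16 and 1.42 ± 4.41 points at the 3 times, intervals that leave out the size of the blood difference. Gfap, the classic marker of astrocyte reactivity, read 20.9 to 25.9% in saline cortex and 21.4 to 27.6% in the LPS libraries.

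**Figure D4:**
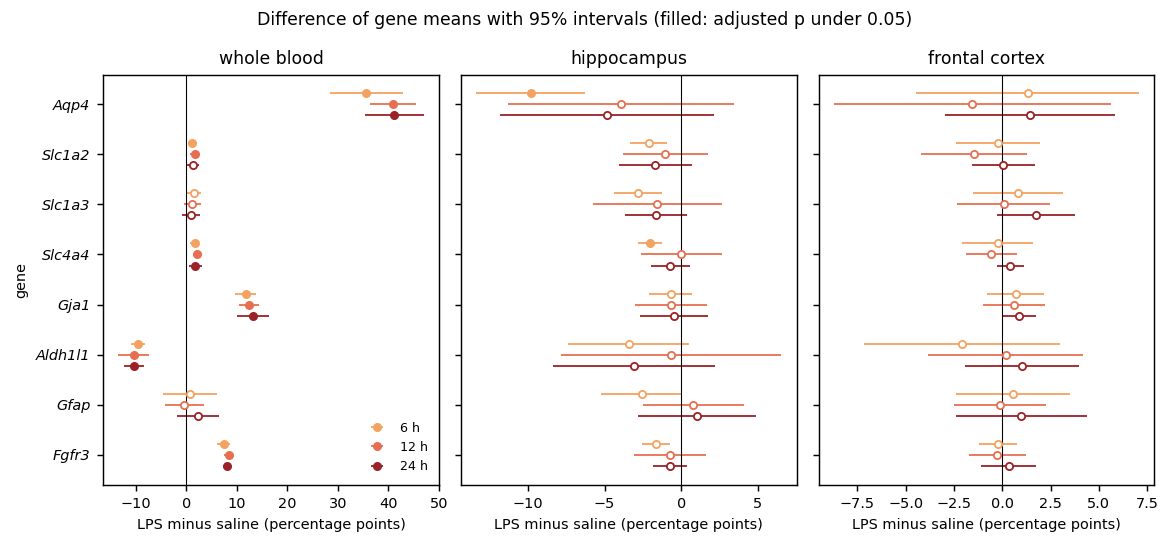
Difference of the gene mean between LPS and saline (horizontal axis, percentage points, scaled separately by tissue) for the 8 tested genes, with 95% intervals of limma, coloured by time and filled where the adjusted p was under 0.05. The blood differences of Aqp4 lie between 35.6 and 41.2 points, and the filled points of hippocampus are Aqp4 and Slc4a4 at 6 h.

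The LPS difference itself was compared between tissues over the sites of all 9 tables. These sites do not include the 2 cytosines of Gja1 called in blood, and Gja1 was not tested. Of 7 tested members, 5, 3 and 5 differed between hippocampus and blood at 6, 12 and 24 h, and 4, 5 and 4 between cortex and blood (limma interaction, adjusted p under 0.05). The shares over all genes were 54.0%, 42.2% and 46.8%, and 39.3%, 44.8% and 39.2%. Aqp4 differed most. At 6 h its difference, negative in hippocampus and positive in blood, gave an interaction of -45.5 ± 8.52 points (adjusted p = 7.48e-07), and that of cortex against blood was -35.0 ± 9.15 (1.58e-05). Fgfr3 differed by -7.69 ± 1.46 (8.26e-07) and -6.72 ± 1.69 points (1.15e-05) at 6 h. Aldh1l1, which fell in blood, differed by 4.21 ± 3.82 points for hippocampus at 6 h (0.0598) and by 9.38 ± 3.67 for cortex at 24 h (0.000567). Between hippocampus and cortex the LPS difference of no member passed (limma, 0.0% of genes at each time, with 1213, 155 and 801 genes and 1, 0 and 1 members at an unadjusted p under 0.05).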

How the data were processed

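Whole blood, hippocampus and frontal cortex were profiled by RRBS, for which 100 ng of DNA went into Ovation RRBS Methyl-Seq libraries (per the labels' protocols). Each tissue and time had 1 of the 9 tables that the authors deposited, holding percent methylation at single cytosines of both strands. Trim Galore, FastQC, Bismark, Bowtie2, SAMtools, methylKit and GRCm38/mm10 are named, without versions, per the submitters' processing notes. The sources used here do not give the coverage minimum or any normalisation. The deposited percent values had no missing entries and no counts, so the depth, and with it any loss of poorly covered sites, is unknown and no coverage minimum could be varied.

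Cytosines in all 3 tables of a tissue were averaged per gene (RefSeq span on GRCm38.p6 with 1000 bp on either side) and per fixed tile of 1000 bp, with at least 3 cytosines and a mean of 5 to 95%. Tissues were compared over the cytosines of all 9 tables. Every test was limma 3.58.1 (lmFit, eBayes with trend, two-sided, R 4.3.3, arrow 21.0.0) over all genes, tiles or cytosines, with Benjamini-Hochberg adjustment within a comparison, tested beforehand on simulated data. Genes were called at an adjusted p under 0.05, tiles and saline tissues also at 5 points or more and cytosines at 10. Means were taken in Python 3.11.15 (pandas 2.3.3, numpy 2.4.6, scipy 1.17.1) and plots drawn with matplotlib 3.10.9.

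All 10 members were named in every comparison. Of tiles and cytosines, the called one with the largest absolute difference per member and tissue was named, and of other gene lists at most 3 called genes. Start regions and tiles described by level across tissues were picked after their values were seen. Members and lists were chosen with earlier results of these data known. Within a tissue, saline and LPS libraries sharing a replicate number did not clearly deviate together. The 31 correlations of deviations from group means ran from -0.205 to 0.281, and 9 of these pairs were each other's best match. Sharing of animals between tissues was not tested. The 3 times of a tissue share their saline libraries. Alternatives were centring of libraries, other limits on level, cytosine number and difference, a logit scale, tile weighting, no variance trend, a replicate block and leaving out each library.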

Additional observations from a re-analysis of the deposited data

Results flagged for a closer look

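The LPS difference of single members differed between tissues in 26 of 63 tests, all of them brain against blood (limma interaction over the cytosines of all 9 tables, adjusted p under 0.05), each value being the brain difference minus the blood difference in percentage points. For the water channel Aqp4 it was -45.5, -44.9 and -46.0 in hippocampus and -35.0, -42.2 and -39.9 in cortex at 6, 12 and 24 h. For the receptor Fgfr3 it was -7.69, -8.02 and -7.40 in hippocampus and -6.72, -7.70 and -6.88 in cortex. For the bicarbonate transporter Slc4a4 it was -2.29, -1.28 and -1.67 in hippocampus and -1.96, -1.92 and -1.68 in cortex. For the glutamate transporters, Slc1a2 had -2.80 at 6 h and -2.89 at 24 h in hippocampus and -1.81 at 6 h and -2.68 at 12 h in cortex, and Slc1a3 had -3.24 in hippocampus at 6 h. Gfap had -9.23 in hippocampus at 24 h, on 3 cytosines that all lie below the lower end of the gene. Aldh1l1 had 6.94 at 12 h and 9.38 at 24 h in cortex. Leaving out single libraries ended the call of Slc1a2 in cortex at 6 h and at 12 h (11 libraries each, adjusted p up to 0.0718 and 0.104) and in hippocampus at 24 h (8 libraries, up to 0.104). It also ended those of Aldh1l1 in cortex at 12 h (6 libraries, up to 0.0803), Slc4a4 in hippocampus at 12 h (3, up to 0.0663) and Gfap in hippocampus at 24 h (3, up to 0.056). With each library centred on its own mean, the calls of Slc4a4 (adjusted p from 0.0935 to 0.924), Slc1a2 (0.695 to 0.927), Slc1a3 (0.746) and Gfap (0.0607) were all lost, and Slc4a4 turned positive except in cortex at 6 h (-0.0832). The blood side of these values moved together with the neutrophil list, whose part was not tested.

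A single library stood below the other 3 of its group in 4 of the 72 groups of 4 libraries examined, and chance flags about 1 in 20. In cortex 12 h after LPS, replicate 3 read 19.7% for Aqp4, 11.8% for Gja1 and 12.6% for Fgfr3, and its mean over all cytosines, 28.6%, was also the lowest of its group. In cortex 24 h after LPS, replicate 4 read 23.1% for Slc4a4. No member was called in cortex.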

How the results depend on the processing

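In blood, the calls of Aqp4, Gja1, Aldh1l1 and Fgfr3 held under all 16, 15 and 15 alternatives run at 6, 12 and 24 h. With libraries centred on their own mean, Slc1a2 turned to -0.656 and -0.641 points at 6 and 12 h and Slc4a4 to -0.169, -0.293 and -0.160 at 6, 12 and 24 h. The interactions then turned to 0.149 (hippocampus, 6 h) and 0.0602 (cortex, 6 h) for Slc1a2, and to 0.658, 1.40 and 0.828 (hippocampus) and 0.686 and 0.0878 (cortex, 12 and 24 h) for Slc4a4, with 3 members called in hippocampus at 6 h, 3 at 24 h and 3 in cortex at 12 h in place of 5 each. Blood tiles with at least 5 cytosines gave 9 calls at each time, a minimum of 10 points gave 10 tiles at 12 h, and 25 points gave 55 and 57 cytosines at 6 and 12 h. Stricter limits leave fewer features by construction. The cause of the other changes was not tested.

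The 2 hippocampal calls at 6 h became 0 when libraries were centred, without the limit on level, without the variance trend and with the replicate block, and 0 to 0 when a library was left out. Leaving out a library gave 0 to 3 hippocampal cytosines at 12 h, 3 to 6 interactions in hippocampus at 24 h and 3 to 5 in cortex at 12 h. Between saline tissues, 10 points left 1 call in hippocampus and 1 in cortex against blood, and LPS 6 h libraries, an alternative chosen after seeing the data, gave 6, 4 and, between the brain regions, 1, with Gfap at -1.38. Within a tissue, replicate numbers did not clearly pair the samples, and pairing across tissues was not tested. Unknown depth leaves the precision of single cytosines unknown.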
